A study of Brassica rapa subsp. pekinensis with 6 samples.

Results

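Brassinosteroid genes are described here in Chinese cabbage, Brassica rapa subsp. pekinensis, comparing leaves with 2 and with 4 copies of the genome. They were taken from the authors' deposited table as every gene whose protein description contained brassinosteroid, BRASSINAZOLE, BRI1 or BES1, in capitals or not. This gave 18 of the 13225 listed genes. Messenger RNA had been sequenced in 6 libraries, 3 from doubled haploid plants and 3 from autotetraploid plants, described by the submitters as biological replicates. Plants of both kinds came from the doubled haploid line 'FT' and grew under like conditions, and mature leaves below the lowest branch of the main stem were sampled at bolting. All plants thus share 1 inbred background, and neither the way the genome was doubled nor the number of plants behind a library was given in the sources used here.

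Brassinosteroids are steroid hormones that promote cell expansion and shape leaf size and the onset of senescence. In Arabidopsis the receptor kinase BRI1 binds the hormone outside the cell and pairs with the co-receptor BAK1, after which the inhibitor BKI1 leaves the membrane. The signal passes through BSK kinases and BSU1-type phosphatases, which switch off the shaggy-like kinase BIN2. The transcription factors BZR1 and BZR2 (also called BES1) then turn on growth genes and turn down genes of hormone synthesis.

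For each gene the table held a single value per group, the mean over 3 libraries of the read count after division by a size factor (the normalised read count). It listed only genes that passed the authors' own test at an adjusted p of 0.05, which was 37.8% of the 34980 genes they tested. How many brassinosteroid genes were tested is not known, so the share of them that passed cannot be given, and genes outside the table were not analysed here. All 18 had their best protein hit in Arabidopsis, and together they matched 11 proteins. Several cabbage genes therefore carry the same name, and reads shared between near-identical copies cannot be told apart here. Levels were normalised between libraries, so that higher and lower mean relative to other genes, and fewer cells of a type and less messenger RNA per cell cannot be told apart in whole leaves. Levels are not compared between genes, since gene lengths were not used here.

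The genes of hormone perception were mostly lower in autotetraploid leaves, and the transcription factors at the end of the pathway were split. Of the 18 genes, 13 fell and 5 rose. Of all genes tested by the authors 18.9% were listed as lower and 18.9% as higher, so that 50.0% of the listed genes fell. As a log2 ratio, with the autotetraploid mean over the doubled haploid mean, the median was -0.44 over the 18 genes and 0.16 over all listed genes. With 6614 listed genes higher and 6611 lower, the latter median lies at the upper edge of the empty band around 0 that the authors' test leaves. It does not show that listed genes were shifted upwards. Of the genes for receptors 4 fell and 1 rose, all 4 genes with BAK1 as best hit fell, and the inhibitor gene BKI1 rose. Among the 8 transcription factor genes 5 fell and 3 rose. Most changes were under 2-fold. Only 3 of the 18 reached 2-fold, 1 downwards and 2 upwards, while 39.6% of all listed genes did, 23.0% downwards and 16.6% upwards. The median size of the change was 0.61 on the log2 scale, and 0.80 over all listed genes. Size went with level, as it was 1.62 for all listed genes with means under 100 and 0.63 for those of at least 100. At means of 100 to 1000 it was 0.67 for 10 brassinosteroid genes and 0.63 for all listed genes. At means of at least 1000 it was 0.44 for 5 brassinosteroid genes and 0.65 for all listed genes.

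**Figure D1:**
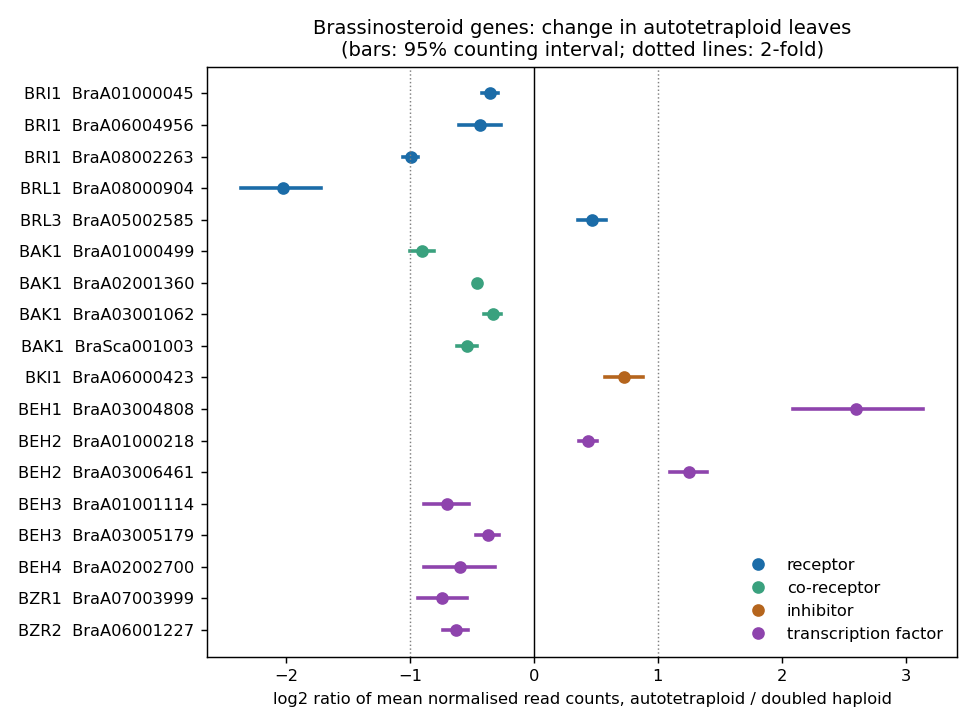
Log2 ratio of autotetraploid to doubled haploid mean for the 18 brassinosteroid genes (horizontal axis), with 1 row per gene coloured by role. Bars are 95% counting intervals, which leave out the spread between plants, and dotted lines mark 2-fold; 13 genes lie left of 0 and 5 lie right of it, from -2.03 (BRL1) to 2.60 (BEH1).

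The direction of these genes can be set beside that of their chromosome codes and levels. Genes with the code A01 in their identifier fell in 72.1% of all listed cases, and 4 brassinosteroid genes carry it, of which 3 fell and 1 rose. Without that code 10 genes fell and 4 rose, while 47.6% of the listed genes of the other codes fell. Of the 15 whose mean over both groups reached 100, 11 fell, and 48.0% of all listed genes of that level did. The part of the A01 code in the result was not tested.

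Leaf markers were strongly present in both groups. Of 34 listed genes for chlorophyll-binding proteins and the Rubisco small chain 30 were higher in autotetraploid leaves, and their summed means were 1081924 in autotetraploid and 689720 in doubled haploid leaves. Of 25 listed genes with words for flower or pollen in their description, which include AGAMOUS-like factors of other organs, 20 were lower, with summed means of 3705 and 5309 in the same order. AGL80 was the gene among them listed at 0 in a group, the autotetraploid. Of 24 listed genes with words for root 14 were lower, with sums of 13994 and 14269. The part of these differences in the results on brassinosteroid genes was not tested.

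All 3 genes with the receptor BRI1 as best hit fell, but not by the same amount. The authors' mean for evm.TU.BraA08002263 was 2212 in doubled haploid leaves and 1110.1 in autotetraploid leaves, a log2 ratio of -0.99 with a 95% counting interval of -1.06 to -0.93 (authors' deposited table, adjusted p = 1.75e-38). With a fall of 1.99-fold it lay just short of 2-fold, and its adjusted p was the smallest among the brassinosteroid genes of the deposited table. The copy on A01, evm.TU.BraA01000045, had means of 1526 and 1193 in the same order, and fell by 0.35 on the log2 scale (deposited adjusted p = 3.03e-05, authors' deposited table). For evm.TU.BraA06004956 the means were 224 and 166, a log2 ratio of -0.43 (counting interval -0.60 to -0.26, adjusted p = 0.00934 in the authors' deposited table). The fall of the A08 copy was larger than that of the A01 copy by 0.64 on the log2 scale, with a counting interval of 0.55 to 0.73 for the difference, and larger than that of the A06 copy by 0.56 (0.38 to 0.74). The A01 and A06 copies differed by 0.08, with an interval of -0.10 to 0.26, which includes 0. These intervals cover counting error only, so that the spread between plants would widen them.

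The related receptor genes went in opposite directions. BRL1 and BRL3 encode receptors that bind brassinosteroids in Arabidopsis and act mainly in vascular tissue there. The gene with BRL1 as best hit (evm.TU.BraA08000904) had the deepest fall of the 18 genes, from a mean of 140 to 34.3, or 4.08-fold (log2 ratio -2.03, counting interval -2.36 to -1.72, adjusted p = 4.57e-18 in the authors' deposited table). Its library values, worked back from the group means, were 139, 136 and 145 in doubled haploid leaves and 33.6, 41.3 and 28.1 in autotetraploid leaves. Every autotetraploid library lay far below every doubled haploid library. The gene with BRL3 as best hit (evm.TU.BraA05002585) rose from 374 to 517, a log2 ratio of 0.47 (counting interval 0.36 to 0.58, adjusted p = 3.98e-05 in the authors' deposited table). Its doubled haploid libraries stood at 392, 337 and 392.

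Library values could be worked back because a group mean can take only values built from whole numbers of reads and 3 size factors, and few combinations give the printed digits. For 12 of the 18 genes the doubled haploid mean had exactly 1 such solution, and for 5 of them the autotetraploid mean had exactly 1 as well. The other autotetraploid means had several solutions, from 3 for the A06 copy of BRI1 upwards, or were too high to solve. Where groups are said to overlap or not, every solution was compared. Groups did not overlap in 99.2% of the 3689 listed genes with all libraries solved, which the authors' test had already selected. For BRL3 the groups did not overlap in 1 of 7 solutions, in which the autotetraploid libraries were 515, 536 and 501. For the A06 copy of BRI1 they did not overlap in 1 of 3, with 173, 161 and 164 against doubled haploid values of 238, 225 and 209. Whether the libraries of these genes overlapped is therefore not settled.

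**Figure D2:**
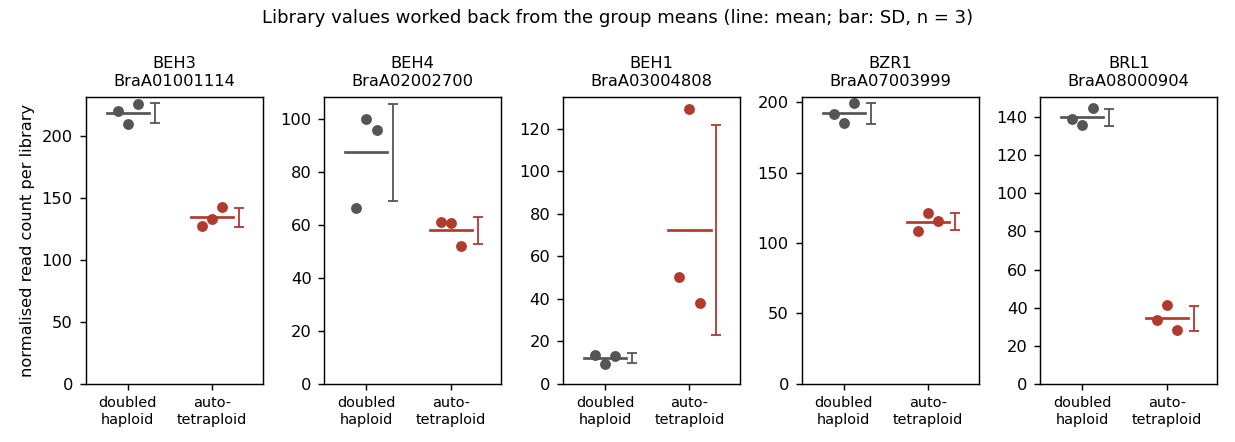
Normalised read counts per library (vertical axis, from 0) for the 5 brassinosteroid genes whose 6 library values have a single solution, with doubled haploid libraries in grey and autotetraploid libraries in red. Horizontal lines are group means and bars are SD (n = 3). The groups do not overlap for any of the 5 genes, nor in 99.2% of the 3689 listed genes solved in this way, all selected by the authors' test. BEH1 has an autotetraploid library at 129 against 50.4 and 37.8 for the others.

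BAK1, the co-receptor that also serves immune receptors, was the best hit of 4 genes, and all 4 fell. The A01 gene evm.TU.BraA01000499 fell most, from a mean of 899.9 to 481 (log2 ratio -0.90, adjusted p = 7.52e-21 in the authors' deposited table). Its doubled haploid libraries were at 841, 940.3 and 919, and its autotetraploid mean had 6 solutions, none of which held a library above 802. The groups of this gene therefore did not overlap under any solution. The unplaced gene evm.TU.BraSca001003 fell from 1050.1 to 724, by 0.54 on the log2 scale (authors' deposited table, adjusted p = 3.00e-09). The other pair matched BAK1 less closely, with E values of 6.32e-67 (evm.TU.BraA02001360) and 5.22e-67 (evm.TU.BraA03001062), where the first pair had an E value of 0. A best hit at this E value does not settle which kinase a gene encodes. Their falls were small, from 7615 to 5554 and from 1189 to 943. As log2 ratios these are -0.46 (adjusted p = 2.60e-12) and -0.33 (adjusted p = 0.000243, both in the authors' deposited table).

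BKI1, which holds BRI1 inactive at the membrane in Arabidopsis, was the only inhibitor among the 18 genes. Its gene (evm.TU.BraA06000423) rose from a mean of 184 to 306, or 1.66-fold, a log2 ratio of 0.73 with a counting interval of 0.58 to 0.88 (adjusted p = 3.33e-07 in the authors' deposited table). The doubled haploid libraries were at 199, 170 and 184. The autotetraploid mean had 5 solutions, and in 1 of them, with 320, 296 and 300.2, the groups did not overlap. The BKI1 gene thus changed in the opposite direction to the 3 BRI1 genes.

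BZR1 and BZR2, the transcription factors that carry the signal to growth genes, were lower in autotetraploid leaves. BZR1 (evm.TU.BraA07003999) had library values of 192, 185 and 199 in doubled haploid and 109, 121 and 116 in autotetraploid leaves, which is 192 ± 7.28 and 115 ± 6.18 (SD, n = 3). The groups did not overlap, and the log2 ratio of the means was -0.74 (counting interval -0.94 to -0.54, adjusted p = 3.29e-05 in the authors' deposited table). BZR2 (evm.TU.BraA06001227) fell from a mean of 668 to 432, a log2 ratio of -0.63 (counting interval -0.73 to -0.53, adjusted p = 1.20e-09 in the authors' deposited table). Its doubled haploid libraries stood at 674, 717 and 613. Of 5 autotetraploid solutions 3 left no overlap with them.

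The homologues of these factors, BEH1 to BEH4, were split by name. Of 6 genes, the 3 matching BEH1 or BEH2 rose and the 3 matching BEH3 or BEH4 fell. The A03 copy of BEH2 (evm.TU.BraA03006461) rose from 167 to 398, or 2.38-fold (log2 ratio 1.25, counting interval 1.10 to 1.40, adjusted p = 1.02e-16 in the authors' deposited table). Its doubled haploid libraries were at 176, 160 and 167, and 4 of 6 autotetraploid solutions lay wholly above them. The A01 copy of BEH2 (evm.TU.BraA01000218) rose from 880.3 to 1191, a log2 ratio of 0.44 (adjusted p = 8.50e-07 in the authors' deposited table). Its rise was smaller than that of the A03 copy. The log2 ratio of the A01 copy minus that of the A03 copy was -0.81, with a counting interval of -0.98 to -0.65.

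BEH1 (evm.TU.BraA03004808) had the highest ratio and the weakest p of the 18 genes. Its mean was 11.9 for doubled haploid plants and 72.4 for autotetraploid plants, a log2 ratio of 2.60 (counting interval 2.09 to 3.14, adjusted p = 0.0427 in the authors' deposited table). The library values were 13.4, 9.25 and 13.1 in doubled haploid leaves and 50.4, 129 and 37.8 in autotetraploid leaves, or 11.9 ± 2.33 and 72.4 ± 49.5 (SD, n = 3). The groups did not overlap, but the value of a single autotetraploid library was above the sum of the other two. On the scale of log2 of the normalised count plus 1, limma put the difference at 2.32 with a standard error of 0.44, and leaving out single libraries moved it between 1.81 and 2.68. The lowest of these was the difference without the library at 129. This fit held only genes that had already passed the authors' test on the same reads, so it is no second test of BEH1, and the standard error borrows its spread from such genes.

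The genes for BEH3 and BEH4 fell by less than 2-fold. The A01 copy of BEH3 (evm.TU.BraA01001114) had 220, 209.9 and 226 in doubled haploid and 127, 133 and 143 in autotetraploid libraries, a log2 ratio of -0.70 (adjusted p = 2.46e-05 in the authors' deposited table). All 3 autotetraploid libraries lay below all 3 doubled haploid libraries. A weaker match to BEH3 (evm.TU.BraA03005179, E value 3.65e-67) fell from 711 to 549.8, a log2 ratio of -0.37 (adjusted p = 0.000305 in the authors' deposited table). Its groups did not overlap in 2 of 6 autotetraploid solutions, so that overlap is not settled for this gene. BEH4 (evm.TU.BraA02002700) had 66.3, 99.9 and 95.9 in doubled haploid and 61.2, 60.5 and 51.8 in autotetraploid libraries, a log2 ratio of -0.59 (adjusted p = 0.0336 in the authors' deposited table). Its lowest doubled haploid library lay close to its highest autotetraploid library, with no overlap. In limma, fitted to genes already selected by the authors' test, its difference was -0.57 with a standard error of 0.20. Its p was 0.0275 before and 0.0281 after adjustment, since nearly every gene of the fit passed and the adjustment corrected almost nothing. Even so its call was lost when any of 4 libraries was left out. Without the autotetraploid library at 60.5 the limma adjusted p was 0.0503, and without that at 51.8 it was 0.0791. Without the doubled haploid library at 99.9 it was 0.0898, and without that at 95.9 it was 0.0848, with differences between -0.60 and -0.46 over these 4 fits.

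Of the 5 genes with all libraries solved, limma called 5, but it called 99.9% of the 3689 listed genes solved in this way, and in 99.2% of them the groups did not overlap. Genes were in the table because the authors' test on the same reads had passed, so neither these shares nor the limma p-values add evidence to the authors' calls. Among brassinosteroid genes with the same best hit 11 pairs could be compared, and for 9 the counting interval of the difference in log2 ratio left out 0. In all 11 pairs both genes moved in the same direction. The pairs came only from BRI1, BAK1, BEH2 and BEH3, and several share a gene or include a weaker match to BAK1 or BEH3. In the related lists some genes sharing a best hit moved together, as for FERONIA and PIF4, and some apart, as for CYP90B1, DET2 and CYP734A6. These are examples only. Other shared hits in those lists went either way, and the cases were not counted. How often such pairs move together among all listed genes was not tested.

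**Figure D3:**
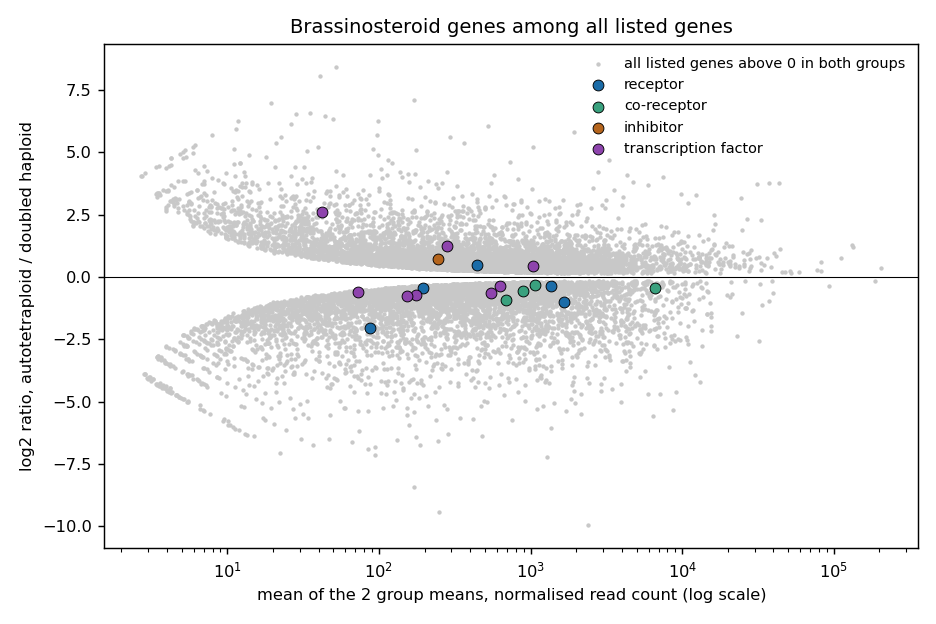
Log2 ratio of autotetraploid to doubled haploid mean (vertical axis) against the mean of both group means on a log scale (horizontal axis) for all listed genes above 0 in both groups (grey) and the 18 brassinosteroid genes coloured by role. The empty band around 0 is where genes did not pass the authors' test. Most brassinosteroid genes changed by less than 2-fold, and BRL1 and BEH1 lie farther out at low means.

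Genes that make or break down the hormone were examined in lists drawn up with earlier results of these data known. The counts and medians of these lists are to be read beside those of all listed genes, of which 50.0% fell. Their median log2 ratio of 0.16 marks the edge of the empty band around 0 and is no shift upwards. Of 9 listed genes of brassinosteroid synthesis 4 rose and 5 fell, with a median log2 ratio of -0.38. The genes for CYP90B1, which hydroxylates the side chain in a rate-limiting early step, went in opposite directions. The authors' deposited means rose from 52.4 to 176 for evm.TU.BraA09003419 (log2 ratio 1.75, adjusted p = 2.87e-18 in the authors' deposited table) and fell from 212 to 93.6 for evm.TU.BraA01003538 (-1.18, adjusted p = 1.56e-11). CYP85A2, which makes brassinolide in the last step, rose from 19.5 to 64.6 (evm.TU.BraA02003842, log2 ratio 1.73, adjusted p = 1.94e-07 in the authors' deposited table). A gene whose best hit was the steroid reductase DET2 (evm.TU.BraA03000769) fell from 1986 to 166, a log2 ratio of -3.58 (adjusted p = 2.00e-294 in the authors' deposited table). That match was weak, with an E value of 1.35e-17, and so was that of a second gene with the same hit, which rose by 0.56 on the log2 scale (evm.TU.BraA10000337, named after its values were seen, authors' deposited table).

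Sterol synthesis, which supplies the precursor of the hormone, had 8 genes higher and 9 lower, with a median log2 ratio of -0.25. The reductase that acts on 7-dehydrocholesterol (evm.TU.BraA05004084) rose from 733 to 1653, and the cycloartenol methyltransferase SMT1 (evm.TU.BraA03000618) rose from 130 to 268, both per the authors' deposited table. Of 7 genes named as squalene epoxidase or monooxygenase 2 rose and 5 fell. Genes matching squalene epoxidases 5 and 4, named by likeness to the enzymes that oxidise squalene, fell from 2886 to 387 (evm.TU.BraA02004193) and from 234 to 67.9 (evm.TU.BraA06003163) in the authors' deposited table. Among the other members of that family, named after their values were seen, the gene for squalene epoxidase 3 (evm.TU.BraA01000131) rose from 659 to 862, and that for squalene monooxygenase 1,2 (evm.TU.BraA06003162) fell from 6014 to 5041, both per the authors' deposited table. For inactivation of the hormone 2 genes were higher and 3 lower. CYP734A1, which hydroxylates brassinosteroids to less active forms, fell from 678 to 307 (evm.TU.BraA05004386), and UGT73C5, which attaches glucose to them, rose from 2764 to 3633 (evm.TU.BraA05003544) in the authors' deposited table. Genes with consecutive identifiers and the rice enzyme CYP734A6 as best hit moved apart. One fell from 1080.0 to 148 (evm.TU.BraA06004233), and the other, a weak match with an E value of 2.48e-17, rose from 442 to 740.0 (evm.TU.BraA06004234) in the authors' deposited table.

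**Figure D4:**
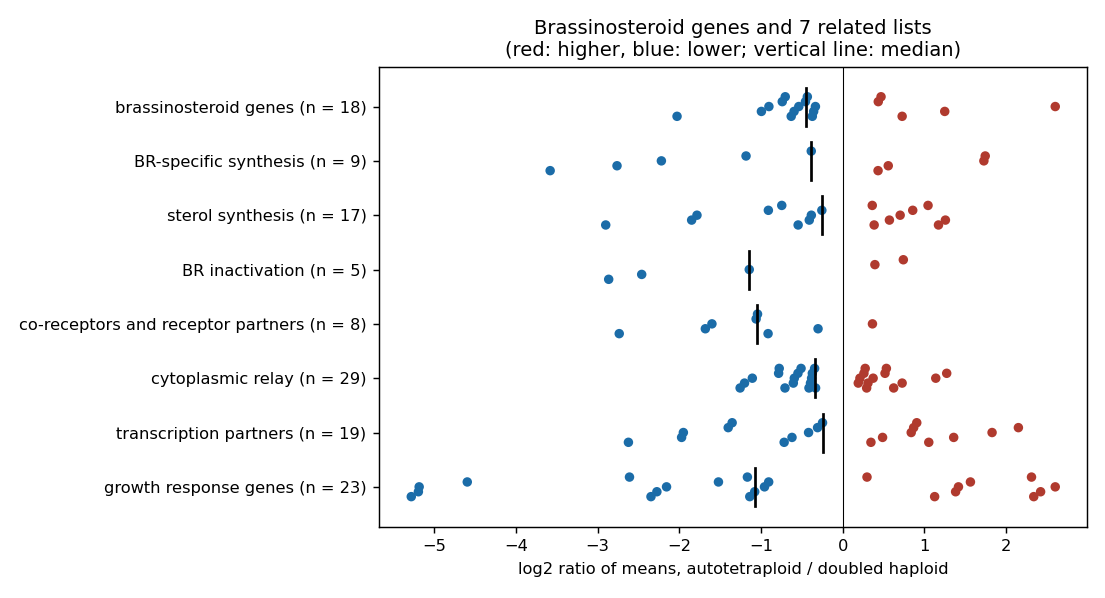
Log2 ratio of autotetraploid to doubled haploid mean (horizontal axis) for each listed gene of the brassinosteroid set and of 7 related lists (rows, with the number of genes; BR stands for brassinosteroid). Points right of 0 are genes higher and points left of 0 genes lower in autotetraploid leaves, vertical lines are medians, and growth response genes spread the widest, from -5.28 to 2.60.

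In a list of receptor kinases at the cell surface, drawn up as co-receptors or possible partners, 7 of 8 genes fell, beside 50.0% of all listed genes. Their median log2 ratio was -1.05. The list is mixed. Of its 3 SERK genes, relatives of BAK1, 2 fell and 1 rose, and the others match FERONIA (3 genes) and HERK 1 (2 genes). Whether FERONIA and HERK 1 act with the brassinosteroid receptors was not tested. Of these 8 genes 2 carry the code A01, where 72.1% of all listed genes fell. All 3 genes for FERONIA, a receptor kinase that senses peptides and the cell wall, were lower. The largest of these falls was from 1953 to 293 (evm.TU.BraA01003473, log2 ratio -2.73, adjusted p = 4.01e-201) and the next from 5398 to 1781 (evm.TU.BraA03004858, -1.60, adjusted p = 2.03e-119), both in the authors' deposited table. A gene matching SERK2, a relative of BAK1, was the exception and rose from a mean of 2718 to 3500.2 (evm.TU.BraA10002167, E value 7.29e-70) in the authors' deposited table.

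The relay between receptor and nucleus had 13 genes higher and 16 lower, and its families differed in their counts. Of 6 genes matching the BSK-type kinase At5g41260 5 fell, of which evm.TU.BraA09006278 fell from 1005 to 421 and evm.TU.BraA02001142 from 346 to 150 in the authors' deposited table. All 3 genes for BSL phosphatases, relatives of BSU1, were lower, with log2 ratios from -0.60 to -0.37. Among genes for 14-3-3 proteins, which retain phosphorylated BZR1 in the cytoplasm, 7 of 9 rose. The named examples are GF14 epsilon (evm.TU.BraA07001449), from 903 to 1309, and GF14 omega (evm.TU.BraA07003731), from 431 to 665, in the authors' deposited table. Shaggy-like kinase genes rose in 5 of 8 cases. The gene for the eta form, known as BIN2 and a negative regulator of the pathway, rose from 335 to 480.5 (evm.TU.BraA01001098, named after its values were seen, adjusted p = 1.48e-05 in the authors' deposited table).

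The list of helix-loop-helix factors linked to the pathway was split into 9 higher and 10 lower genes. Besides factors that work with BZR1 and BZR2 it holds IBH1 and PRE genes. Both genes matching PIF4, which binds growth genes together with BZR1, fell, from 482 to 183 (evm.TU.BraA03002369) and from 382 to 150 (evm.TU.BraA04003094) in the authors' deposited table. Of all 7 PIF genes 6 fell. BEE 2, named for its induction by brassinosteroid, rose from 249 to 638 (evm.TU.BraA08002125), and IBH1, which restrains growth-promoting partners, rose from 722 to 1499 (Novel00740) in the authors' deposited table.

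Growth response genes held the largest changes of the 7 lists, with 9 higher and 14 lower genes and a median log2 ratio of -1.08. All 8 listed genes of the EXORDIUM family, whose founding member is brassinosteroid-induced in Arabidopsis and promotes leaf growth, fell. EXORDIUM itself (evm.TU.BraA03002827) fell from 2345 to 64.5, a log2 ratio of -5.18 with a counting interval of -5.40 to -4.97 (adjusted p deposited as 0 in the authors' deposited table). XTH22, a cell wall enzyme that responds to touch and to brassinosteroid (Novel01433), fell from 17404 to 720.3, a log2 ratio of -4.59 (adjusted p deposited as 0 in the authors' deposited table). Expansins and their relatives, known for loosening cell walls, were split, with 9 genes higher and 5 lower. Expansin-A1 (evm.TU.BraA02002099) rose from 55.4 to 297 and Expansin-A8 (evm.TU.BraA05004290) from 249.8 to 667 in the authors' deposited table. The deepest fall of all 7 lists was in the same family, in a gene matching Expansin-like A2 (evm.TU.BraA06005007), from 550.2 to 14.2, a log2 ratio of -5.28 (adjusted p = 1.63e-174 in the authors' deposited table). A gene for Expansin-A5 (evm.TU.BraA02003806) fell from 25.2 to 0.689, and another for Expansin-A8 (evm.TU.BraA03002264) from 46.1 to 24.6, in the authors' deposited table. These last 3 genes were named after their values were seen.

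Over all 7 lists, which hold 110 genes, 46 rose and 64 fell, while 50.0% of all listed genes fell. The median log2 ratio was -0.38, and 0.16 over all listed genes, where it marks the edge of the empty band around 0.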

How the data were processed

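The submitters' processing notes name DESeq 1.18.0 and HTSeq 0.6.1, besides the aligners TopHat2 2.0.12 and Bowtie2 2.2.3; for build and annotation, the text used here is silent (not given in the sources used here). A single table was deposited by the authors. Its signal columns, read counts per the file headers, hold 1 normalised mean per group and not whole reads. The deposited log2 column is the log2 ratio of these means, and the deposited p-value columns, raw and adjusted, come from the authors' test. The number of genes tested, 34980, followed from adjusted p times rank over p. Library read totals are not known. A protein description was present for 10959 listed genes (82.9%), and 0 identifiers matched the reference gene table, so no coordinates or sequences are printed.

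The brassinosteroid genes and the 7 pathway and 3 marker lists, which are patterns over descriptions, were chosen with earlier results of these data known. The design called for limma on values per library. With only group means deposited, the calls of the authors' test were used instead, and limma 3.58.1 in R 4.3.3 was run only on genes whose 6 library values could be worked back. Size factors, estimated by least squares from the steps between low values, were 0.926 to 1.01 in autotetraploid and 0.917 to 1.12 in doubled haploid libraries. All whole-number solutions within the rounding of the table were listed for means under 1000, and for the fit, genes with exactly 1 solution in both groups and both means under 300 were kept (3689 of 5288). Above an autotetraploid mean of 100, having 1 solution depends partly on the reads themselves. limma was run on log2 of the normalised count plus 1, with Benjamini-Hochberg adjustment.

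Counting intervals (95%, exact Clopper-Pearson on the share of reads in each group, or normal for differences between genes) cover counting error only. Named genes are all 18 members and, per pathway list, the 2 with the smallest adjusted p in each direction; others are marked. Scripts were tested on simulated data. The working back of library values was scored there only for means under 100, so that test does not cover higher means. Scripts ran in Python 3.11.15 with SciPy 1.17.1, pandas 2.3.3, matplotlib 3.10.9 and NumPy 2.4.6.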

Additional observations from a re-analysis of the deposited data

How the results depend on the processing

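No brassinosteroid gene changed direction when means were scaled by the sum over listed genes or centred on the median log2 ratio of listed genes with a mean of at least 500, which lay at 0.25. Both scalings lowered every log2 ratio, by 0.06 and 0.25, and the smallest rise was 0.44, so no direction could change. The median was taken only over genes that passed the authors' test, so it is no neutral reference. Relative to that median the 18 genes ran from -2.28 to 2.35, with a median of -0.70. The counts of 5 higher and 13 lower genes stayed between 4 and 5 and between 10 and 13 under several other settings. These were limits of 0.01 and 0.001 on the adjusted p, a minimum mean, leaving out code A01, all annotation columns and, chosen after seeing the data, an E value limit of 1e-100. Keeping only Arabidopsis hits could not change the counts, as all 18 genes had such a hit. At 2-fold 2 genes were higher and 1 lower, and with 1 gene per protein hit 4 were higher and 7 lower, since both keep fewer genes. Over the related lists, 46 higher and 64 lower genes became 30 higher at an adjusted p limit of 0.001, and 19 higher and 35 lower at 2-fold, again with fewer genes kept. The 5 limma calls, among genes the authors' test had already selected, stayed 5 with pseudocounts of 0.5 and 0.1, a minimum mean of 5 and a variance trend. They became 4 to 5 when each library was left out, in fits that called 3510 to 3570 of all 3689 genes. With both means under 100, a limit chosen after seeing the data, 2 of 2 were called, beside 2579 of all 2581 genes. In every setting nearly all genes of the fit were called, so these counts say little about brassinosteroid genes in particular. Of the 5 genes only BEH4 lost its call, when any of 4 libraries was left out. No paired analysis was possible because the table holds group means and the libraries worked back from them carry no replicate number. A floor for genes at 0 was not needed, as 0 of the 18 genes were at 0. Depth limits small changes: genes with low counts are listed only when they changed much.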
